A study of Mus musculus with 4 samples.

Results

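The glutamate and GABA receptor genes were the 50 genes of the deposited table whose symbols name an AMPA, kainate, NMDA, delta or metabotropic glutamate receptor, a GABA-A or GABA-B receptor subunit, or one of the AMPA receptor auxiliary proteins Shisa6, Shisa7 and Shisa9. They were taken by symbol alone out of 48395 genes, and each symbol occurred once. They comprised 4 AMPA, 5 kainate, 7 NMDA, 2 delta, 8 metabotropic glutamate, 19 GABA-A, 2 GABA-B and 3 Shisa genes. RNA was measured in fluorescent cells sorted from the cortex of ICR mouse embryos. The control group (2 libraries) received a plasmid with the CAG promoter, an internal ribosome entry site and the green fluorescent protein ZsGreen at E14.5, and the Zeb1 group (2 libraries) received the same kind of plasmid with Zeb1, a zinc-finger transcriptional repressor, before the ZsGreen cassette. Both groups carried the electroporated plasmid for 48 hours in utero and were collected at E16.5, when the cortices were dissociated with papain and sorted. CAG is active in most cell types, so the fluorescent gate selects cells that took up plasmid and not one cell type, and the labels do not say whether embryos or litters were pooled.

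Glutamate receptors are the excitatory receptors of the cortex. AMPA, kainate and NMDA receptors are tetrameric cation channels, and metabotropic receptors signal through G proteins. GABA-A receptors are pentameric chloride channels built mostly from alpha, beta and gamma subunits, and GABA-B receptors are dimers coupled to G proteins. In the embryonic cortex, GABA often depolarises cells because their chloride content is high, and both transmitters act on progenitors and migrating neurons before synapses form.

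Zeb1, the gene on the plasmid, had 35.2 and 18.6 FPKM in control cells and 5622 and 6227 FPKM in Zeb1 cells. FPKM scale the fragments of a gene by its transcript length and by the size of the library. They give no absolute depth, and relative depth estimated from short genes was 0.994 to 1.04 of that of control replicate 1. Marker lists of the cortical cell types were summed per library. The 8 projection neuron markers summed to 1246 and 1346 FPKM in controls and to 1150 and 1206 FPKM in Zeb1 libraries, and the 8 radial glia markers to 815 to 843 and 936 to 1285 FPKM. Without the most abundant gene of each, the groups overlapped for both of these lists. The radial glia sum without Vim was 450 and 431 FPKM in controls and 528 and 375 FPKM in Zeb1 libraries, and the projection neuron sum without Neurod6 was 821 and 851 against 699.6 and 829.5 FPKM. Both Zeb1 libraries lay below both controls for 4 of the 8 projection neuron markers and above for 1 (50% and 12.5%). Over all 14330 genes averaging at least 1 FPKM, these shares were 19.5% and 18.2%. In limma, described below, 2 of the 8 had an unadjusted p under 0.05, both lower. Tbr1 had 116 and 119 FPKM in controls and 64.8 and 74.8 FPKM in Zeb1 libraries (limma adjusted p = 0.487). Slc17a7 had 11.9 and 10.004 against 6.70 and 5.78 FPKM (limma adjusted p = 0.587). The 8 interneuron markers summed to 53.8 to 55.9 FPKM in controls and 47.8 to 55.1 FPKM in Zeb1 libraries. The 8 microglial markers summed to 403 and 104 FPKM in controls and to 736 and 396 FPKM in Zeb1 libraries, so they were lowest in control replicate 2, and 0 of them were listed at 0 in every library. Fewer cells of a type and less RNA per cell cannot be told apart in such bulk samples.

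The groups were compared with limma on log2(FPKM + 1) over all 14330 genes that averaged at least 1 FPKM, with Benjamini-Hochberg adjustment over all of them and a threshold of 0.05. Of the 50 receptor genes, 25 reached that level and were tested. In limma, 0 of the 25 passed in either direction, where 0.0837% of all genes tested passed as higher and 0.112% as lower. At an unadjusted limma p under 0.05, 1 receptor gene was higher (4% of 25, against 3.23% of all genes tested) and 3 were lower (12%, against 3.68%). These 4 were Grin1 on the higher side and Shisa7, Grm2 and Gabbr2 on the lower side. The groups did not overlap for 13 of the 25 genes (52%, against 37.6% of all genes tested). Both Zeb1 libraries lay above both controls for 5 of the 25 genes (20%, against 18.2% of all genes tested) and below both controls for 8 (32%, against 19.5%). The median log2 fold change was 0.09 over the 25 genes and 0.00032 over all genes tested, with 15 receptor genes positive and 10 negative. Nothing in the labels says that replicates are separate litters, and the p-values therefore refer to the spread among these 4 libraries alone.

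**Figure D1:**
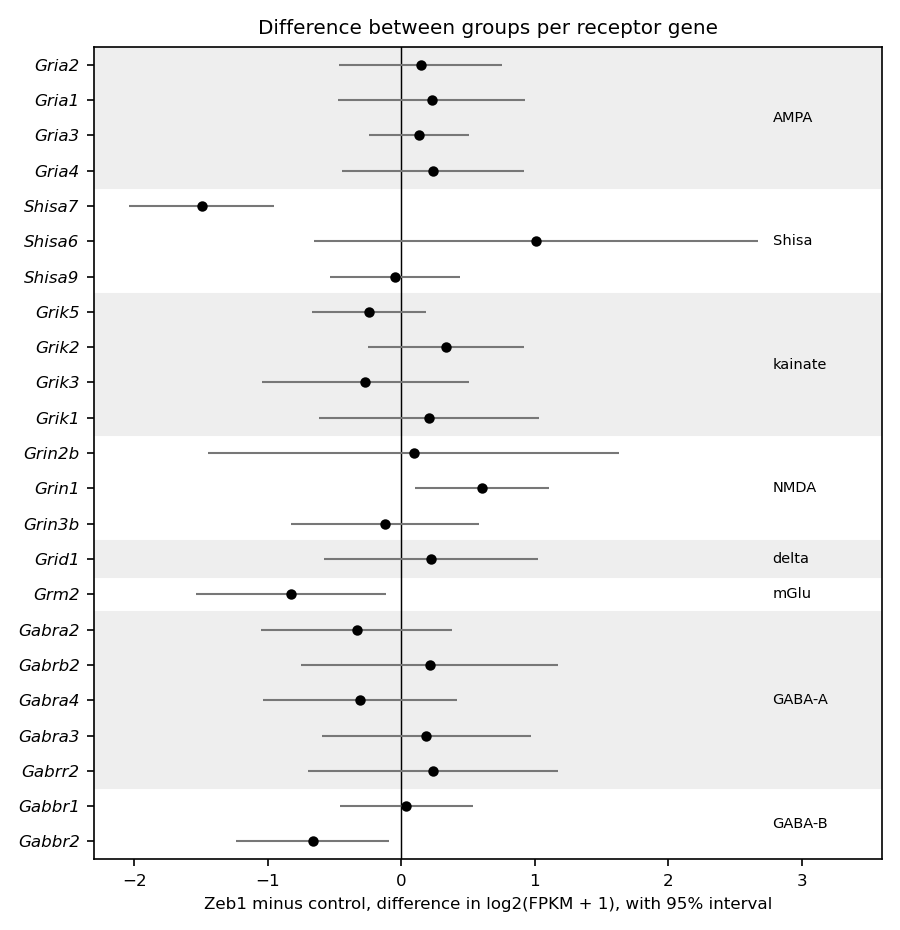
Difference between groups for 23 of the 25 receptor genes tested. The horizontal axis is Zeb1 minus control in log2(FPKM + 1), points are limma estimates, bars are 95% intervals, and shading separates the families. The intervals of Shisa7, Grm2, Gabbr2 and Grin1 exclude 0, and Shisa6 and Grin2b have the widest intervals.

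The DNA before the RefSeq starts of these 4 genes is shown because ZEB1 is known to bind the E-box CACCTG, whose other strand reads CAGGTG. Each sequence holds the 250 bases before the RefSeq start (GRCm38.p6), written 5′ to 3′ on the gene's strand, with the E-box in capitals. All 4 genes lie on the minus strand, and the regions are chr7:4844697-4844946 for Shisa7, chr2:25319188-25319437 for Grin1, chr9:106656110-106656359 for Grm2 and chr4:46991715-46991964 for Gabbr2.
Shisa7: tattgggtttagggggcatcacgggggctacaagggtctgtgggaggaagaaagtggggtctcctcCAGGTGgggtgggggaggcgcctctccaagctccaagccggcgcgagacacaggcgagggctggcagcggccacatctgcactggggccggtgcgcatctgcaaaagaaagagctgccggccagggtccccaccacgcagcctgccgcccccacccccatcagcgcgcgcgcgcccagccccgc
Grin1: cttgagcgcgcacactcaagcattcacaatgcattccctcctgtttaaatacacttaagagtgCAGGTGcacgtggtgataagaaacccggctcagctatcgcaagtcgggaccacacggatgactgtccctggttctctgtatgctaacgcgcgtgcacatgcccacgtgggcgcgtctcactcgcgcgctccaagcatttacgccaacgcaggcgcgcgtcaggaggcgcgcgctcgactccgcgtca
Grm2: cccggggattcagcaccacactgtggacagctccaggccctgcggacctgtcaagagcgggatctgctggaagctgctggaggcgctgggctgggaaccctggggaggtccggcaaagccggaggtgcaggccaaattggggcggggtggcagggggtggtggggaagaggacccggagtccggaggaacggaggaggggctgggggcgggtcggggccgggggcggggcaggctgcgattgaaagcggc
Gabbr2: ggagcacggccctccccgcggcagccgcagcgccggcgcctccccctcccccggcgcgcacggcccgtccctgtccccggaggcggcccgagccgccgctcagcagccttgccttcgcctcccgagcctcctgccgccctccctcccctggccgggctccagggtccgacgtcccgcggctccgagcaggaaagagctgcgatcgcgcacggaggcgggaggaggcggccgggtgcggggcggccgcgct
The Shisa7 and Grin1 windows each held 1 E-box, which began at position -184 and -187 from the start, and those of Grm2 and Gabbr2 held none with these letters. The Gabbr2 locus used for its FPKM ends at 46991873, and its window begins at 46991715. Part of that window therefore lies inside the locus and not before it. Shisa7 had the lower and Grin1 the higher value in Zeb1 cells, so the windows with the motif belonged to genes of opposite direction. RefSeq windows were found for 33 of the 50 receptor genes, with 1 or more windows each, and 9 of the 40 windows (22.5%) held the motif on either strand, against 17.2% of all 32851 windows of the same length. The letters alone do not show that a site is bound.

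The levels of the receptor genes were dominated by 3 members. Gabbr1, the GABA-binding subunit of the GABA-B receptor, had a mean of 207 FPKM over the 4 libraries, Gria2 had 163 FPKM and Grik5 had 81.8 FPKM. Together they made up 75.3% and 72.7% of the summed FPKM of all 50 genes in the controls and 73.6% and 75.7% in the Zeb1 libraries. Of the remaining genes, 7 had a mean of 10 to 100 FPKM, 15 one of 1 to 10 FPKM and 25 one under 1 FPKM. The summed FPKM of all 50 genes was 663 and 549 in control cells and 595 and 624 in the Zeb1 libraries, so the groups overlapped. Control replicate 2 was the lowest of the 4 libraries for 10 of the 25 genes tested, against 4, 7 and 4 genes for control replicate 1, Zeb1 replicate 1 and Zeb1 replicate 2. It was also the highest for 7, against 7, 5 and 6 in the same order. That library also had the lowest microglial sum, and the part of microglial RNA in these levels was not tested.

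**Figure D2:**
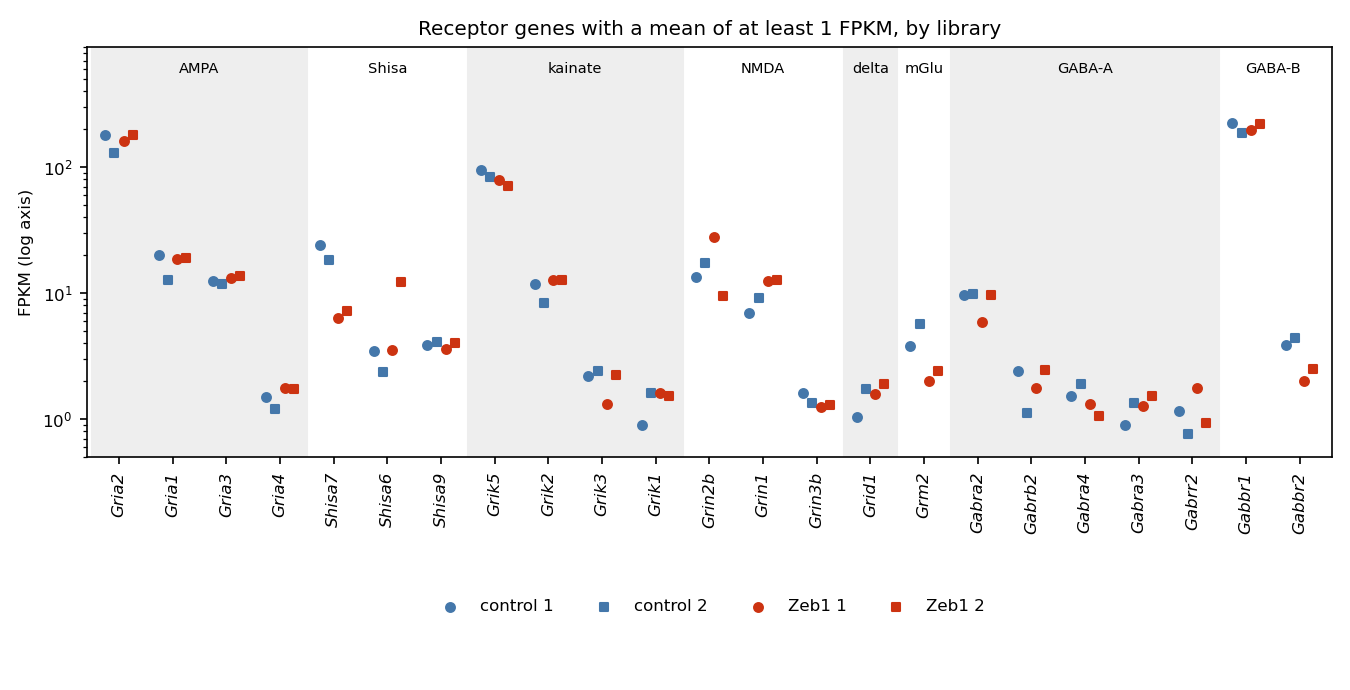
FPKM of 23 of the 25 receptor genes averaging at least 1 FPKM, on a log axis. Blue marks are control and red marks Zeb1 libraries, circles are replicate 1 and squares replicate 2, and shading separates the families. Gabbr1, Gria2 and Grik5 stand above the others in all 4 libraries.

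AMPA receptor genes encode the pore subunits of the fast excitatory receptor, and all 4 were tested. Gria2, the subunit whose edited form makes the channel nearly impermeable to calcium, had 181 and 131 FPKM in controls and 162 and 179 FPKM in Zeb1 libraries. The groups overlapped, and the log2 fold change was 0.15 with a 95% interval of -0.47 to 0.76 (limma adjusted p = 0.896). Gria2 made up 83.5% to 84.1% of the family's FPKM in controls and 82.8% to 83.8% in Zeb1 cells. Gria1 had 20.1 and 12.8 FPKM in controls and 18.8 and 19.2 FPKM in Zeb1 libraries. Its control libraries lay on either side of both Zeb1 libraries. Gria3 had 12.6 and 11.8 FPKM against 13.2 and 13.8 FPKM, with both Zeb1 libraries above both controls. Gria3 differed by 0.13 (SE 0.13, limma adjusted p = 0.810). Gria4 had 1.49 and 1.21 FPKM in controls and 1.78 and 1.74 FPKM in Zeb1 libraries, again without overlap, and a log2 fold change of 0.23 (SE 0.24, limma adjusted p = 0.818). It was 0.15 without control replicate 2. These log2 fold changes are on the log2(FPKM + 1) scale, which understates the change of genes at a few FPKM.

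The Shisa proteins are single-pass membrane proteins that bind AMPA receptors and alter their gating, and Shisa7 has also been found with GABA-A receptors in the mouse hippocampus. Shisa7 (chromosome 7, 4825552 to 4844696) had 24.1 and 18.3 FPKM in control cells and 6.41 and 7.25 FPKM in Zeb1 cells. Both Zeb1 libraries were below both controls, and the mean was 0.322 of that in controls (21.2 ± 4.09 and 6.83 ± 0.596 FPKM, SD, n = 2 each). The log2 fold change was -1.49 (SE 0.19, 95% interval -2.04 to -0.95), the smallest unadjusted p of the receptor genes tested (limma adjusted p = 0.278). Over the alternative fits that kept all libraries, its limma adjusted p ran from 0.126 (protein-coding genes alone) to 0.459 (with a replicate block). Its log2 fold change ran from -1.68 to -1.31 when single libraries were left out.

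Shisa6 (chromosome 11, 66211725 to 66525964) had 3.46 and 2.37 FPKM in controls and 3.52 and 12.4 FPKM in Zeb1 libraries. The high mean of the Zeb1 group came from replicate 2, while replicate 1 was 3.52 FPKM against 3.46 FPKM in the higher control. The log2 fold change was 1.01 (SE 0.60, limma adjusted p = 0.764), and it was 0.22 without Zeb1 replicate 2 and 1.79 without Zeb1 replicate 1. Shisa9 had 3.87 and 4.09 FPKM in controls and 3.63 and 4.02 FPKM in Zeb1 libraries, and the groups overlapped. Shisa7 held 76.7% and 73.9% of the summed Shisa FPKM in controls and 47.3% and 30.6% in Zeb1 libraries. Shisa6 held 10.99% and 9.55% in controls and 25.97% and 52.4% in Zeb1 libraries. Both Zeb1 libraries thus had a smaller Shisa7 and a larger Shisa6 share, but a lower Shisa7 value alone raises the other shares. In Zeb1 replicate 1 the Shisa6 share was 25.97% at 3.52 FPKM, against 10.99% at 3.46 FPKM in control replicate 1. The shares were not tested, and an exact permutation test of 2 against 2 libraries could not go below p = 0.3333.

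**Figure D3:**
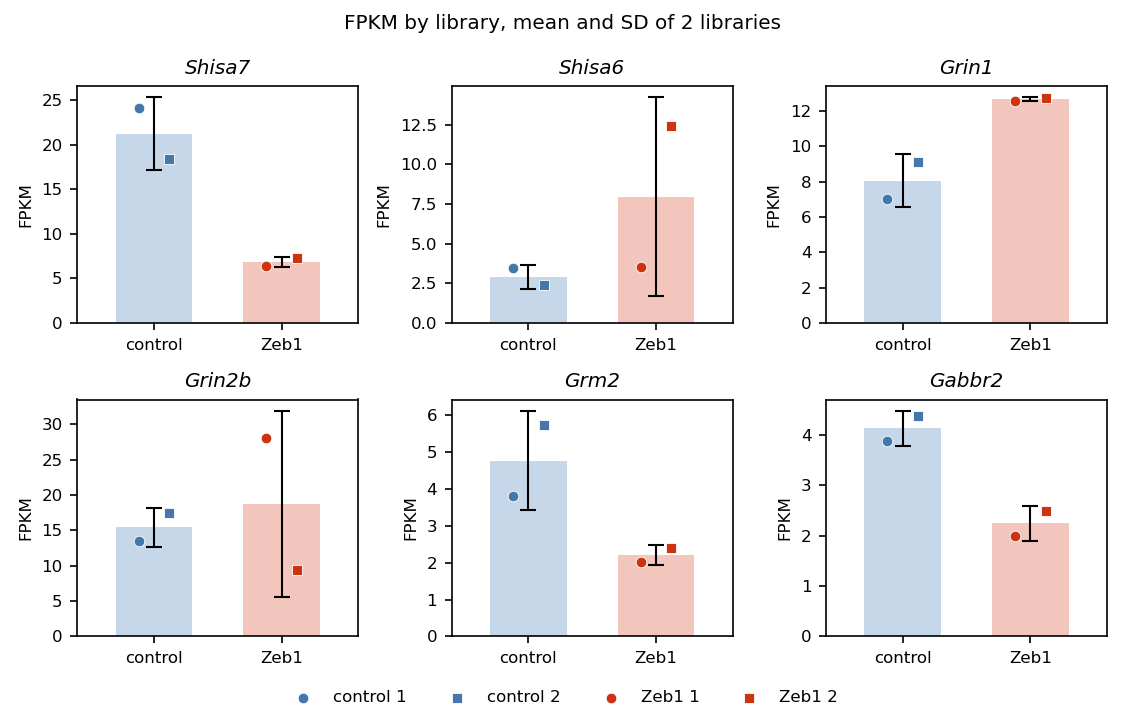
FPKM of Shisa7, Shisa6, Grin1, Grin2b, Grm2 and Gabbr2, each on its own linear axis from 0. Bars are means and error bars SD of 2 libraries, circles are replicate 1 and squares replicate 2. Shisa7, Grm2 and Gabbr2 are lower and Grin1 higher in both Zeb1 libraries, and the Zeb1 libraries of Shisa6 and Grin2b stand far apart.

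Kainate receptor genes were led by Grik5, a high-affinity subunit that needs Grik1, Grik2 or Grik3 partners to form a channel. Grik5 had 94.5 and 83.1 FPKM in controls and 78.7 and 70.9 FPKM in Zeb1 libraries, all lower than both controls. Grik5 differed by -0.24 with a 95% interval of -0.67 to 0.18 (limma adjusted p = 0.764), or by -0.15 without control replicate 1. Grik2, a subunit that can form channels on its own, had 11.9 and 8.36 FPKM in controls and 12.8 and 12.8 FPKM in Zeb1 libraries. Its Zeb1 libraries were above both controls, with a log2 fold change of 0.33 and a 95% interval of -0.25 to 0.91 (limma adjusted p = 0.764). The Grik2 value was 0.56 without control replicate 1 and 0.10 without control replicate 2. The Grik5 share of kainate FPKM was 85.9% and 86.4% in controls and 82.6% and 80.3% in Zeb1 libraries, and that of Grik2 was 10.8% and 8.70% in controls and 13.5% and 14.48% in Zeb1 libraries. The groups did not overlap in either share. Grik3 and Grik1 had means of 2.05 and 1.41 FPKM with overlapping groups, and Grik4 had a mean of 0.730 FPKM and was not tested.

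NMDA receptors contain the obligatory subunit encoded by Grin1 together with GluN2 or GluN3 subunits. Grin1 (chromosome 2, 25291181 to 25319187) had 6.99 and 9.10 FPKM in controls and 12.6 and 12.7 FPKM in Zeb1 libraries. Both Zeb1 libraries were above both controls, and the log2 fold change was 0.61 (SE 0.18, 95% interval 0.11 to 1.10, limma adjusted p = 0.651). The antisense gene Grin1os shares 13.5% of the Grin1 exon bases and had a mean of 0.296 FPKM, and the sources used here do not give the strand setting of the counting. Without control replicate 1, Zeb1 replicate 1 or Zeb1 replicate 2, the unadjusted limma p of Grin1 was 0.110, 0.130 and 0.144.

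Grin2b, the GluN2 subunit that prevails before birth in rodent cortex, had 13.5 and 17.4 FPKM in controls and 28.0 and 9.45 FPKM in Zeb1 libraries. The Zeb1 libraries lay on either side of both controls, 2.97-fold apart. The log2 fold change was 0.09 (SE 0.55, limma adjusted p = 0.982), and it was 0.83 without Zeb1 replicate 2 and -0.64 without Zeb1 replicate 1. Grin2b held 92.5% to 93.8% of the summed FPKM of the 4 GluN2 genes in controls and 88.4% to 95.8% in Zeb1 cells. The ratio of Grin2b to Grin1 FPKM was 1.93 and 1.91 in controls and 2.23 and 0.741 in Zeb1 libraries. The other GluN2 genes, Grin2d, Grin2c and Grin2a, had means of 0.681, 0.452 and 0.0622 FPKM and were not tested.

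The GluN3 subunits bind glycine in place of glutamate. Grin3b had 1.62 and 1.34 FPKM in controls and 1.26 and 1.29 FPKM in Zeb1 libraries, with both Zeb1 libraries below both controls and a log2 fold change of -0.12 (SE 0.25, limma adjusted p = 0.931). It was -0.040 without control replicate 1 and -0.21 without control replicate 2. On the opposite strand, Tmem259, with a mean of 91.7 FPKM, covers 32.1% of the Grin3b exon bases, so the Grin3b values are uncertain. Grin3a had a mean of 0.427 FPKM. Of the delta receptors, which bind cerebellins at synapses, Grid1 had 1.03 and 1.74 FPKM in controls and 1.601 and 1.92 FPKM in Zeb1 libraries. The Grid1 groups overlapped, with a log2 fold change of 0.22 and a 95% interval of -0.58 to 1.02 (limma adjusted p = 0.867). The Grid1 value was 0.0077 without control replicate 1 and 0.44 without control replicate 2.

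**Figure D4:**
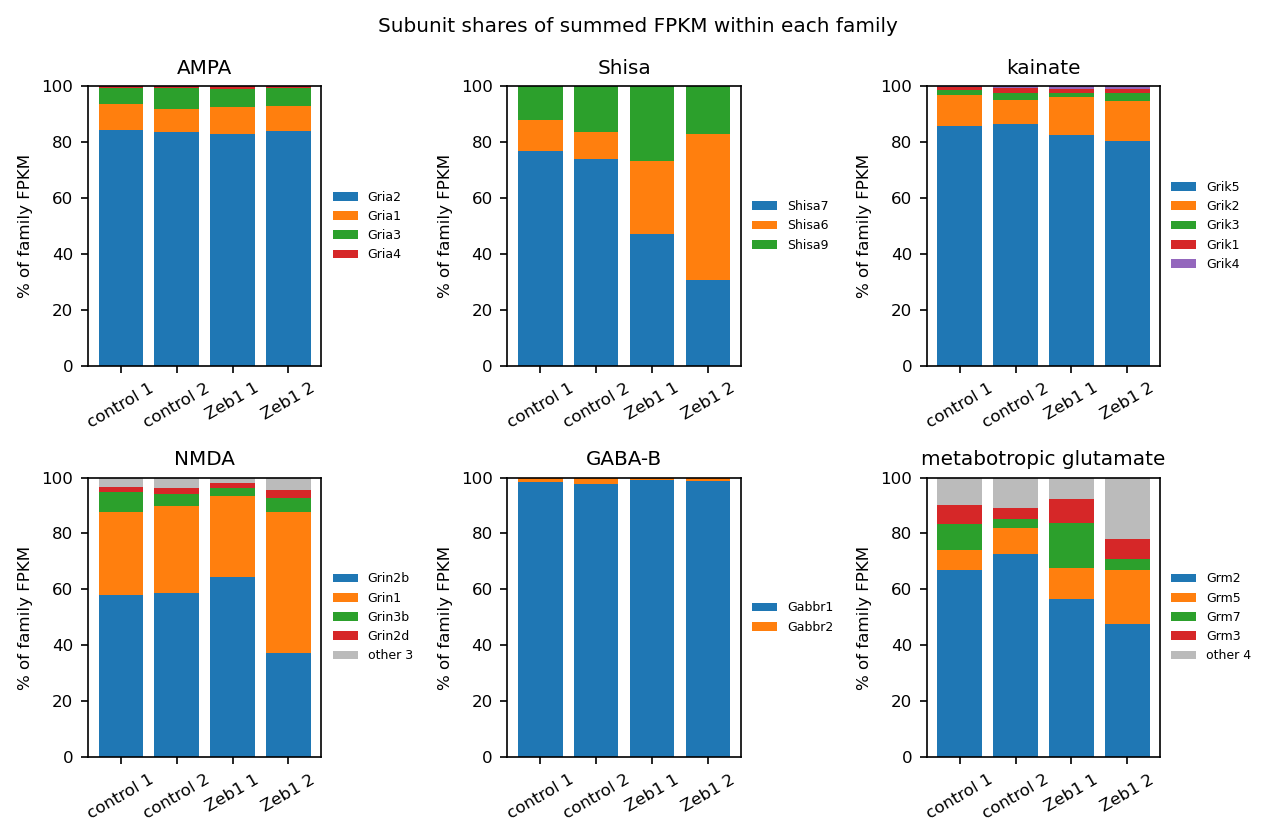
Share of each gene in the summed FPKM of the AMPA, Shisa, kainate, NMDA, GABA-B or metabotropic glutamate family, in percent, for each of the 4 libraries. Each stacked bar is 1 library and each colour 1 gene, with the least abundant genes in grey. The AMPA bars are alike in all libraries, the Shisa bars differ between the groups, and the NMDA bar of Zeb1 replicate 2 differs from the other three.

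Of the 8 metabotropic glutamate receptor genes, only Grm2 reached the level for testing. Grm2 encodes a Gi-coupled receptor found mainly on presynaptic membranes. It lies on chromosome 9, positions 106643095 to 106656082, and had 3.82 and 5.73 FPKM in controls and 2.02 and 2.40 FPKM in Zeb1 libraries. Both Zeb1 libraries were below both controls, and the mean was 0.464 of that in controls. The log2 fold change was -0.83 (SE 0.26, 95% interval -1.54 to -0.12, limma adjusted p = 0.676). With single libraries left out, the unadjusted limma p stayed under 0.05 only without control replicate 1 (0.0240), and was 0.0747 without control replicate 2, 0.146 without Zeb1 replicate 1 and 0.103 without Zeb1 replicate 2. Below that level, means ran from 0.00787 FPKM (Grm6, best known from retinal bipolar cells) to 0.637 FPKM (Grm5, a Gq-coupled receptor). Grm7, Grm3, Grm8 and Grm4 had means of 0.388, 0.336, 0.201 and 0.188 FPKM.

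Of the 19 GABA-A receptor genes, 7 were tested. Gabra2, the leading alpha subunit, had 9.71 and 9.93 FPKM in controls and 5.93 and 9.61 FPKM in Zeb1 libraries. Zeb1 replicate 2 was close to the controls, and the log2 fold change was -0.33 (SE 0.26, limma adjusted p = 0.765), or -0.03 without Zeb1 replicate 1 and -0.64 without Zeb1 replicate 2. Gabra4 had 1.52 and 1.91 FPKM in controls and 1.32 and 1.06 FPKM in Zeb1 libraries, both below the controls, for a difference of -0.31 on the log2 scale (SE 0.26, limma adjusted p = 0.780).

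The groups overlapped for Gabrb2, Gabra3 and the rho subunit gene Gabrr2, with means of 1.94, 1.26 and 1.16 FPKM. Gabrr2 averaged 0.967 FPKM in controls and 1.34 FPKM in Zeb1 libraries, so it reached the level for testing only through the Zeb1 libraries. It is among the receptor genes counted as positive. Gabra2 held 63.9% to 73.0% of the summed FPKM of the alpha subunit genes over the 4 libraries. Gabra5, an alpha subunit gene of extrasynaptic receptors, had a mean of 0.571 FPKM. Gabrb1, Gabre, Gabrg3 and Gabrg1 had means of 0.373, 0.332, 0.168 and 0.104 FPKM. Gabrq, Gabrd, Gabrr1 and Gabrp lay at or below 0.0720 FPKM. Gabra6, known from cerebellar granule cells, and Gabrr3 were listed at 0 in all 4 libraries.

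Most GABA-A genes lie in clusters. The chromosome 5 cluster (70751047 to 72149037, GRCm38) held Gabra2 at 8.79 FPKM beside Gabrg1 at 0.104 FPKM. Its 4 genes summed to 11.8 and 12.3 FPKM in controls and to 7.53 and 11.2 FPKM in Zeb1 libraries. The X-linked cluster summed to 1.36 and 1.79 FPKM in controls and 1.63 and 1.87 FPKM in Zeb1 libraries.

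GABA-B receptors need both of their subunits at the cell surface, GABBR1 to bind GABA and GABBR2 to couple to G proteins. Gabbr1 had 224 and 186 FPKM in controls and 197 and 222 FPKM in Zeb1 libraries, with overlapping groups and a log2 fold change of 0.04 with a 95% interval of -0.46 to 0.54 (limma adjusted p = 0.976). Gabbr2 (chromosome 4, 46662305 to 46991873) had 3.88 and 4.38 FPKM in controls and 1.9996 and 2.49 FPKM in Zeb1 libraries. Both Zeb1 libraries were below both controls, and the mean was 0.544 of that in controls. The log2 fold change was -0.66 (SE 0.21, 95% interval -1.24 to -0.09, limma adjusted p = 0.684). Gabbr1 FPKM exceeded Gabbr2 FPKM 57.6-fold and 42.4-fold in controls and 98.6-fold and 89.2-fold in Zeb1 libraries, so the ratios of the groups did not overlap. The unadjusted limma p of Gabbr2 stayed under 0.05 only without Zeb1 replicate 2 (0.0485), and was 0.0599, 0.0862 and 0.0887 without control replicate 1, control replicate 2 and Zeb1 replicate 1.

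The 25 genes below a mean of 1 FPKM reached at most 0.987 FPKM in any library. Of the 23 that were above 0 in some library, the groups did not overlap for 9 (39.1%, against 25.8% of the 14162 genes of the table with a mean above 0 and under 1 FPKM). Both Zeb1 libraries were above both controls for 5 of the 23 and below for 4, against 2060 and 1596 of the 14162 genes. They were not tested, and without counts no detection limit can be given. The 4 NMDA receptor genes among them did not go one way, and they were chosen after their values were seen. Grin3a had 0.315 and 0.306 FPKM in controls and 0.460 and 0.627 FPKM in Zeb1 libraries, and Grin2d had 0.463 and 0.643 against 0.880 and 0.737 FPKM, both without overlap. The groups overlapped for Grin2c, with 0.377 and 0.713 against 0.330 and 0.387 FPKM, and for Grin2a, with 0.0577 and 0.0543 against 0.0173 and 0.120 FPKM.

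Partners of the receptors were described from 8 lists, and limma called 0 of their genes over all genes tested. Among 19 of 21 AMPA auxiliary and assembly genes that were tested, an unadjusted p under 0.05 was found for 3 higher and 3 lower genes (15.8% each, against 3.23% and 3.68% of all genes tested), and the median log2 fold change was -0.07. Olfm2, a secreted olfactomedin found in AMPA receptor complexes, had 28.4 and 32.3 FPKM in controls and 13.4 and 15.8 FPKM in Zeb1 libraries (log2 fold change -1.01, limma adjusted p = 0.385). Nptx1, a neuronal pentraxin that gathers AMPA receptors, had 3.91 and 3.48 against 1.74 and 1.46 FPKM, and its membrane-bound partner Nptxr had 4.57 and 3.999 against 7.76 and 7.09 FPKM. Cacng3, a transmembrane AMPA receptor regulatory protein, had 0.557 and 0.786 FPKM in controls and 2.14 and 2.34 FPKM in Zeb1 libraries. Its control mean was 0.672 FPKM, so it reached the level for testing only through the Zeb1 libraries, where it is high. The other three genes did not overlap between the groups either, Olfm2 and Nptx1 being lower and Nptxr higher in Zeb1 libraries.

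Of 23 glutamate receptor scaffold genes, 22 were tested, with 2 higher and 2 lower genes at the unadjusted level (9.09% each, against the same 3.23% and 3.68%) and a median log2 fold change of 0.02. Grip2, among the 22, averaged 1.14 FPKM in controls and 0.879 FPKM in Zeb1 libraries. It reached the level for testing only through the controls, where it is higher, and it enters the median of 0.02. Pick1, which binds the tail of GluA2, had 37.5 and 35.0 FPKM in controls and 21.8 and 12.7 FPKM in Zeb1 libraries. Dlg2, a synaptic scaffold of the PSD-95 family, had 20.8 and 14.1 against 9.77 and 10.96 FPKM. The adhesion gene Lrrtm2 had 4.37 and 4.24 against 9.33 and 6.91 FPKM, and the scaffold gene Grasp had 5.48 and 5.69 against 11.9 and 9.03 FPKM. The limma adjusted p of these 4 genes lay between 0.587 and 0.706. Among 8 of 10 glutamate transport genes tested, 2 were higher and 2 lower at the unadjusted level (25% each, against the same 3.23% and 3.68%). The median log2 fold change of the 8 was -0.0013. The neuronal transporter gene Slc1a1 had 7.26 and 7.60 against 3.83 and 4.16 FPKM, and the vesicular transporter gene Slc17a7 11.9 and 10.004 against 6.70 and 5.78 FPKM. Slc17a7 is also among the projection neuron markers given above. Slc1a2, the glial transporter, had 2.72 and 1.79 against 4.57 and 6.29 FPKM. The other 4 astrocyte markers summed to 8.18 and 14.46 FPKM in controls and to 12.48 and 11.96 FPKM in Zeb1 libraries, with overlapping groups. Most of that sum was Aldh1l1, with 7.16 and 13.5 FPKM in controls and 11.9 and 10.3 FPKM in Zeb1 libraries. S100b, Gfap and Aqp4 were each under 1 FPKM in every library. The part of astrocytes in the Slc1a2 values was not tested.

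On the GABA side, 14 of 17 scaffold and assembly genes were tested, with a median log2 fold change of 0.0040. At the unadjusted level 0 were lower and 1 gene was higher (0% and 7.14%, against 3.68% and 3.23% of all genes tested). That gene was Slitrk3, an adhesion protein of inhibitory synapses, with 2.29 and 1.98 FPKM in controls and 4.399 and 4.55 FPKM in Zeb1 libraries (limma adjusted p = 0.587). Gphn, which encodes the scaffold gephyrin, had 8.70 and 8.82 against 7.22 and 6.47 FPKM. Among 9 of 10 genes of GABA synthesis, transport and the chloride gradient, 0 had an unadjusted limma p under 0.05, and the median log2 fold change was 0.03. The chloride importer gene Slc12a2 had 7.78 and 7.51 against 8.43 and 8.13 FPKM, and the exporter gene Slc12a5 had 1.93 and 2.26 against 1.80 and 2.56 FPKM. Among the kainate and delta partners 4 of 7 were tested, and among the glycine receptor and transporter genes 3 of 7. In limma, 0 of them had an unadjusted p under 0.05, and the median log2 fold changes were 0.15 and -0.18. Neto1, 1 of the 4 partners, averaged 0.950 FPKM in controls and 1.37 FPKM in Zeb1 libraries. It reached the level for testing only through the Zeb1 libraries, where it is high, and it enters the median of 0.15. Among 8 of 9 editing and splicing genes tested, 1 was lower at the unadjusted level (12.5%, against 3.68% of all genes tested), and the median was -0.08. This lower gene was the splicing regulator Rbfox1, with 64.1 and 60.5 against 47.9 and 41.4 FPKM (limma adjusted p = 0.685). Slc12a2 and Slc12a5 were chosen after their values were seen.

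**Figure D5:**
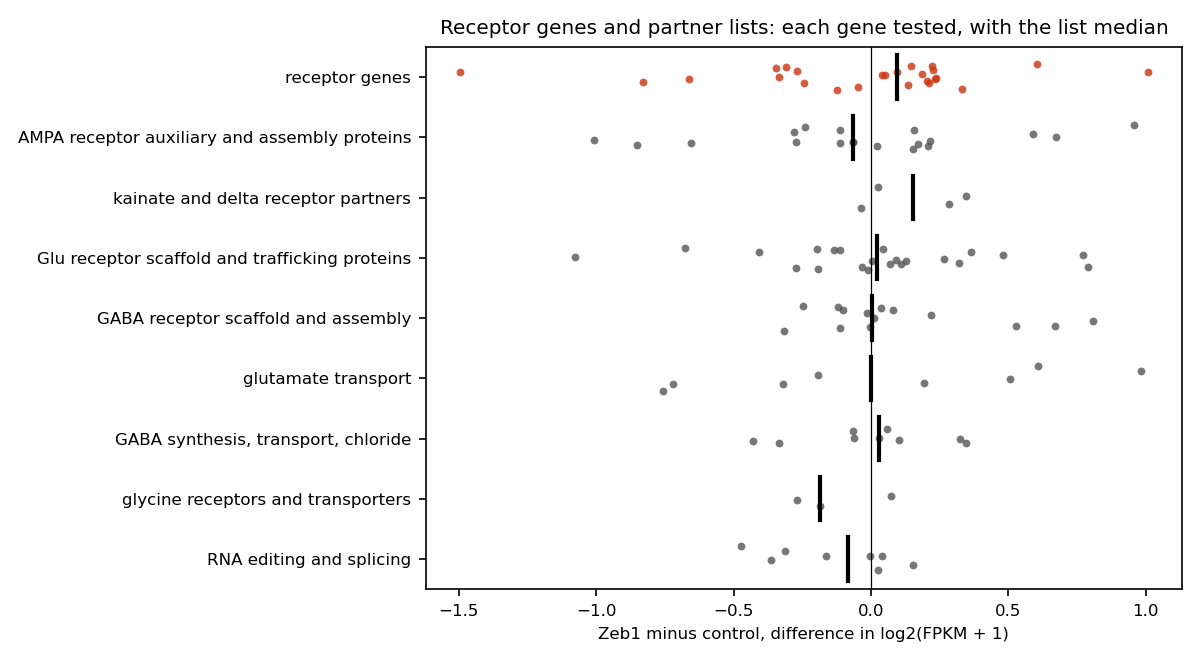
Zeb1 minus control in log2(FPKM + 1) for each gene tested, with the receptor genes in red, the 8 partner lists in grey and the median of each as a black bar. Points are spread vertically for legibility only. The medians lie between -0.18 (glycine receptors and transporters) and 0.15 (kainate and delta partners), and most lists have genes on both sides of 0.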

How the data were processed

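The deposited table holds 1 FPKM value for each gene in each library, computed by the authors. The submitters' processing notes name the tools STAR, Cufflinks and DESeq2 and the build GRCm38, and their roles and versions are not given in the sources used here. Counts and absolute depth are unknown, so no counting interval was computed. The table held 48395 genes and 1 emptied line, and 50 of 50 receptor identifiers matched GENCODE M21. Table starts are counted from 0, and 1 was added. Relative depth is the inverse of the most common ratio, near 1, of values of genes under 200 bp, within 0.5%.

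Groups were compared with limma 3.58.1 (statmod 1.5.0, R 4.3.3), two-sided, with an intensity trend, on log2(FPKM + 1) of the 14330 genes averaging at least 1 FPKM. The steps were tested on simulated data. Promoter windows are RefSeq's. Figures used matplotlib 3.10.9. The alternatives were other pseudocounts, filters, scalings and limma settings, protein-coding genes alone, a replicate block, and each library left out. With 1 library left in a group, its spread is taken from the other group.

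The members and lists were chosen with earlier results of these data known. Named with full values were receptor genes at an unadjusted p under 0.05 or with groups that do not overlap and the most abundant of each family, and up to 4 genes by p per partner list; for lists with fewer genes at an unadjusted p under 0.05, fewer are named. Some genes of the rule are not reported here by name, but they stay in the fits, sums and counts.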

Additional observations from a re-analysis of the deposited data

How the results depend on the processing

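No receptor gene passed in limma after adjustment over all genes under any of the 11 alternatives that kept all libraries. None of the log2 fold changes of the 23 receptor genes drawn by name turned sign under these. The filters, the limma settings, protein-coding genes alone and the replicate block leave the fold change of a gene they keep as it is. Only the other pseudocounts and the scalings could therefore turn a sign. Leaving out 1 library, an unadjusted p under 0.05 was found for 0 to 1 higher and 1 to 2 lower genes, and the median log2 fold change ran from -0.088 to 0.076. Without a filter these were 2 higher, 1 lower and a median of 0.0096, and at a mean of at least 5 FPKM 1 was lower. Under choices added after seeing the data, the groups did not overlap for 10 higher and 12 lower of 48 genes without a filter (20.8% and 25%, against 16.4% and 15.4% of all genes). They did not overlap for 4 and 4 of 13 at 5 FPKM (against 16.6% and 20.7%) or for 3 and 8 of 25 with quantile normalization (against 16.5% and 22.1%). The partner lists were not fitted under the alternatives. Fewer or more genes are tested under the filters. At a mean of at least 5 FPKM, Gabbr2 and Grm2 were not tested. Without a filter both were tested, with unchanged log2 fold changes and an unadjusted limma p of 0.0516 and 0.0532. The cause of the other shifts was not tested.

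Among the genes given here, signs turned when single libraries were left out for Gabrb2 (-0.13 to 0.55), Gria1 (-0.078 to 0.53), Shisa9 (-0.10 to 0.011), Grik1 (-0.025 to 0.44), Gabbr1 (-0.10 to 0.17), Gria2 (-0.088 to 0.38), Gabrr2 (-0.018 to 0.49) and Grin2b (-0.64 to 0.83). Replicate numbers are shared by the groups, but the labels do not say what they stand for. Deviations of same-numbered libraries from their group means had a correlation of 0.083 across all genes tested and of -0.20 across the receptor genes tested. With a replicate block, limma called 0 receptor genes, the unadjusted level was passed by 1 higher and 3 lower genes, and the count over all genes went from 28 to 11. The block changed no call of a receptor gene. Depth is unknown, so genes near 1 FPKM have an unknown counting error.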
